A study of Mus musculus with 6 samples.

Results

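Genes tied to T cell anergy, 7 in all, were followed here in mouse regulatory T cells (Tregs): Izumo1r, Rnf128, Cblb, Itch, Dgka, Dgkz and Ndrg1. They were taken by gene name from the deposited table, where these 7 of 55840 genes each occurred once, and all 7 passed the filter on low counts that left 14919 genes for testing. The study compared Tregs of spleen and lymph nodes from wild-type mice (WT, 3 libraries) with Tregs whose genotype is given as Exon2KO (3 libraries), which the series title writes as Foxp3 with a delta 2 mark. Nothing else about the mice (strain, age, sex, how the Tregs were sorted) is stated in the labels, and the titles call the libraries biological replicates. Libraries are named by genotype and the number in their column name (2, 6 or 20), which no label explains.

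Anergy is a state in which a T cell that has met antigen without costimulation stays alive but responds poorly to the next encounter. It is known to follow calcium signals through NFAT when the partner factor AP-1 is not engaged. Its effectors act close to the T cell receptor: ubiquitin ligases mark signalling proteins for degradation, and diacylglycerol kinases remove the lipid messenger that opens the Ras and protein kinase C branches. Tregs are themselves poorly responsive to receptor stimulation in culture, and folate receptor 4, the product of Izumo1r, is used as a surface marker of both Tregs and anergic CD4 T cells.

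Total counts ran from 17998216 to 21003496 per library. Foxp3, the edited gene, was read 10934 to 15997 times per WT library and 13336 to 16437 times per Exon2KO library. It did not pass the test (log2 fold change 0.19, SE 0.13, edgeR adjusted p = 0.693), and counts per gene do not show whether the exon was absent. Markers of Tregs and T cells were present in every library, with summed levels of 2058 to 3423 and 3178 to 3716 CPM (counts scaled by the TMM library size); neither sum overlapped between genotypes, as given beside Izumo1r and Dgka. Markers of other cells were far lower: 32.0 to 45.1 CPM for 7 B cell genes, 76.2 to 105.6 for 8 myeloid genes, 28.0 to 49.6 for 7 CD8 and NK genes and 3.49 to 17.4 for 6 erythroid genes. The 49.6 CPM came from Exon2KO 6 alone, where Eomes had 22.5 CPM, and every other library had at most 30.2 CPM for the CD8 and NK genes. Of the 6 stromal genes, Pecam1, which T cells also express, made up nearly all of the sum, and Col3a1 had 0 counts in all libraries. Of the myeloid sum, Cst3 alone gave 49.1 to 60.2 CPM per library. Both libraries numbered 20 stand apart from the others in overall profile, so calls among the 7 genes and the genes named from their families and pathways are also given without them where that changes a call.

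The members that passed the test moved in opposite directions. Izumo1r was lower in Exon2KO Tregs by 24.2% and Dgka, the gene of diacylglycerol kinase alpha, was higher by 33.9%. These 2 of the 7 genes passed the test at an adjusted p under 0.05 over all 14919 genes, where 2.33% of all genes passed (0.757% higher and 1.58% lower in Exon2KO). With the library number as a replicate block, Dgkz (higher) and Ndrg1 (lower) also passed, which made 4 of 7 against a background of 9.72% (3.93% higher and 5.79% lower). Rnf128, Cblb and Itch, the 3 ubiquitin ligase genes, passed in neither fit. The groups did not overlap for 4 of the 7 genes (Izumo1r, Dgka, Dgkz and Cblb), against 17.7% of all tested genes. The median log2 fold change was 0.15 over the 7 genes and 0.01 over all tested genes.

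The sequences upstream of the start sites of the 2 genes that passed are shown because NFAT, known as a driver of anergy genes, and Foxp3, a forkhead factor that can bind DNA with NFAT, act through such elements. They are from RefSeq (GRCm38.p6), minus strand, 5′ to 3′, and capitals mark the NFAT core GGAAA, which reads TTTCC where it lies on the other strand. For Izumo1r only the 68 bases outside annotated exons are given.
Izumo1r, chr9:14903950-14904017: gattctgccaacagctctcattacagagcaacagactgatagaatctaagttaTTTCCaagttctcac
Dgka, chr10:128745085-128745334: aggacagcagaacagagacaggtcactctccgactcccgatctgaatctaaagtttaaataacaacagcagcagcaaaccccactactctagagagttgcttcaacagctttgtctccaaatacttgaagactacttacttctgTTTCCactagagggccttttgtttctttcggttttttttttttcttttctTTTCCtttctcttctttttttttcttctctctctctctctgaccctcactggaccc
RefSeq start sites were found for 5 of the 7 genes (not Itch or Ndrg1), and for each the 250 bases before the start nearest the gene's annotated 5′ end were searched on both strands. GGAAA occurred 1 time for Izumo1r, 2 times each for Rnf128, Cblb and Dgka and 0 times for Dgkz, and 55.6% of all 32851 RefSeq windows of that length held it. The forkhead motif TGTTTAC (3.17% of windows) and the AP-1 motif TGANTCA (6.75% of windows) occurred in none of the 5. The Cblb window lies wholly in annotated exons, 94 bases of the Dgkz window do, and the starts used for Rnf128 and Dgkz lie 47304 and 12301 bases inside the annotated gene. Such matches describe letters in a window and nothing about binding.

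Izumo1r (ENSMUSG00000031933, chromosome 9, 14885814 to 14903949, minus strand, GRCm38) encodes folate receptor 4, a member of the folate receptor family that on eggs serves as the receptor of the sperm protein Izumo1. The libraries WT 2, 6 and 20 gave 13471, 12632 and 14364 Izumo1r counts, and their Exon2KO counterparts gave 9211, 9616 and 10329. Scaled for library size, this was 723, 696 and 674 CPM in WT and 512, 493 and 581 CPM in Exon2KO. All WT libraries were above all Exon2KO libraries, and the highest Exon2KO value came from library 20. The WT mean was 698 ± 24.7 CPM and the Exon2KO mean 529 ± 46.3 CPM (SD, n = 3 each). On the log2 scale the change was -0.40 (SE 0.085, 95% interval -0.59 to -0.21, edgeR adjusted p = 0.0440).

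Leaving out any 1 library except Exon2KO 20 took Izumo1r out of the calls, with edgeR adjusted p-values from 0.0595 (without WT 20) to 0.221 (without Exon2KO 2) and log2 fold changes from -0.43 to -0.36. It kept its call without both libraries numbered 20 (-0.50, edgeR adjusted p = 0.0161) and with the replicate block (-0.40, edgeR adjusted p = 0.00167). Between libraries of the same number the log2 difference was -0.50, -0.50 and -0.21 for 2, 6 and 20. In bulk libraries, fewer cells of a type and less RNA per cell cannot be told apart. The summed level of 8 Treg markers, a list that was chosen with earlier results of these data known, was also lower in Exon2KO. It was 2848 to 3423 CPM in WT and 2058 to 2706 CPM in Exon2KO. The log2 fold change was negative for 7 of them, but Foxp3 went the other way (0.19, edgeR adjusted p = 0.693). Within the numbers 2, 6 and 20 Foxp3 was higher in Exon2KO by 0.077, 0.184 and 0.301 on the log2 scale. Of the 8, 5 were called lower (Il2ra, Ctla4, Ikzf2, Tnfrsf4 and Nrp1) and none higher, where 1.58% of all genes were called lower. With the block 7 of the 8 were called lower, against 5.79% of all genes. The part of that shift in the Izumo1r result was not tested. The summed B cell markers were also lower, at 39.1 to 45.1 CPM in WT and 32.0 to 34.3 in Exon2KO, with no overlap, and their part was likewise not tested.

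The relatives of Izumo1r were nearly silent. Folr1 had 0 counts in all 6 libraries, which allows up to 0.141 to 0.169 CPM per library, and Folr2, another folate receptor, had 0 to 11. Of the folate carriers, Slc19a1 had 43.9 CPM in WT and 40.3 CPM in Exon2KO (log2 fold change -0.13), and Slc46a1 had 1.27 and 1.29 CPM. None of the 3 tested genes of this list passed in either fit, where 2.33% (without the block) and 9.72% (with it) of all genes did.

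Diacylglycerol kinases turn the messenger diacylglycerol into phosphatidic acid, and the alpha and zeta forms are the ones known to restrain T cell receptor signalling. Dgka (ENSMUSG00000025357, chromosome 10, 128720134 to 128744855, minus strand) was covered by 24851, 22950 and 25725 counts for WT 2, 6 and 20 and by 30780, 31237 and 31658 for Exon2KO. In CPM these were 1334, 1264 and 1207 in WT and 1710.5, 1602 and 1781 in Exon2KO. Every Exon2KO library exceeded every WT library by a wide gap relative to the spread within a genotype. Means were 1269 ± 63.8 CPM for WT and 1698 ± 90.1 CPM for Exon2KO (SD, n = 3 each), a 1.34-fold rise (log2 fold change 0.42, SE 0.081, 95% interval 0.24 to 0.60, edgeR adjusted p = 0.0307).

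The size of the Dgka difference changed little between settings, but its call did. It lost its call in each of the 6 fits that left out 1 library (0.38 to 0.45, edgeR adjusted p from 0.0562 without WT 20 to 0.172 without Exon2KO 2) and without both libraries numbered 20 (0.35, edgeR adjusted p = 0.0917). With the replicate block it passed with all libraries (0.42, edgeR adjusted p = 0.00121) and without those numbered 20 (0.35, edgeR adjusted p = 0.0303). The differences within the numbers 2, 6 and 20 were 0.36, 0.34 and 0.56. Pmel overlaps 105 bases of Dgka on the opposite strand and had 6234 counts against 167201 for Dgka. The log2 fold change of Pmel was 0.44 (edgeR adjusted p = 0.578), and the part of shared reads in either value was not tested. The summed level of 7 T cell markers was also higher in Exon2KO, at 3178 to 3499.7 CPM in WT and 3563 to 3716 CPM in Exon2KO with no overlap. Among the 7, Trbc2 (0.29) and Cd4 (0.22) had the largest log2 fold changes, while Cd3e (0.02), Cd3d (0.05) and Cd3g (-0.01) were near 0. None of the 7 was called without the block, where 2.33% of all genes were. With the block 1 was called, where 9.72% of all genes were. The part of this summed shift in the Dgka and Dgkz results was not tested.

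Dgkz (ENSMUSG00000040479, chromosome 2, 91932824 to 91975864, minus strand), the zeta kinase, showed a smaller difference in the same direction. Its levels were 838, 905 and 796 CPM in WT 2, 6 and 20 and 939.6, 1046 and 976 CPM in Exon2KO. The groups did not overlap, although WT 6 and Exon2KO 2 were close. The means were 846 ± 55.3 and 987 ± 54.0 CPM (SD, n = 3 each). The log2 fold change of 0.22 (SE 0.083, 95% interval 0.035 to 0.41) did not pass without the block (edgeR adjusted p = 0.290). It passed with the block (0.22, SE 0.066, edgeR adjusted p = 0.0459), but not with the block when both libraries numbered 20 were left out (0.19, edgeR adjusted p = 0.254). The noncoding gene Gm9821 lies within Dgkz on the opposite strand, with 6216 counts against 103646, and the counting is not stated to use strand, so some reads of this pair are uncertain.

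**Figure D1:**
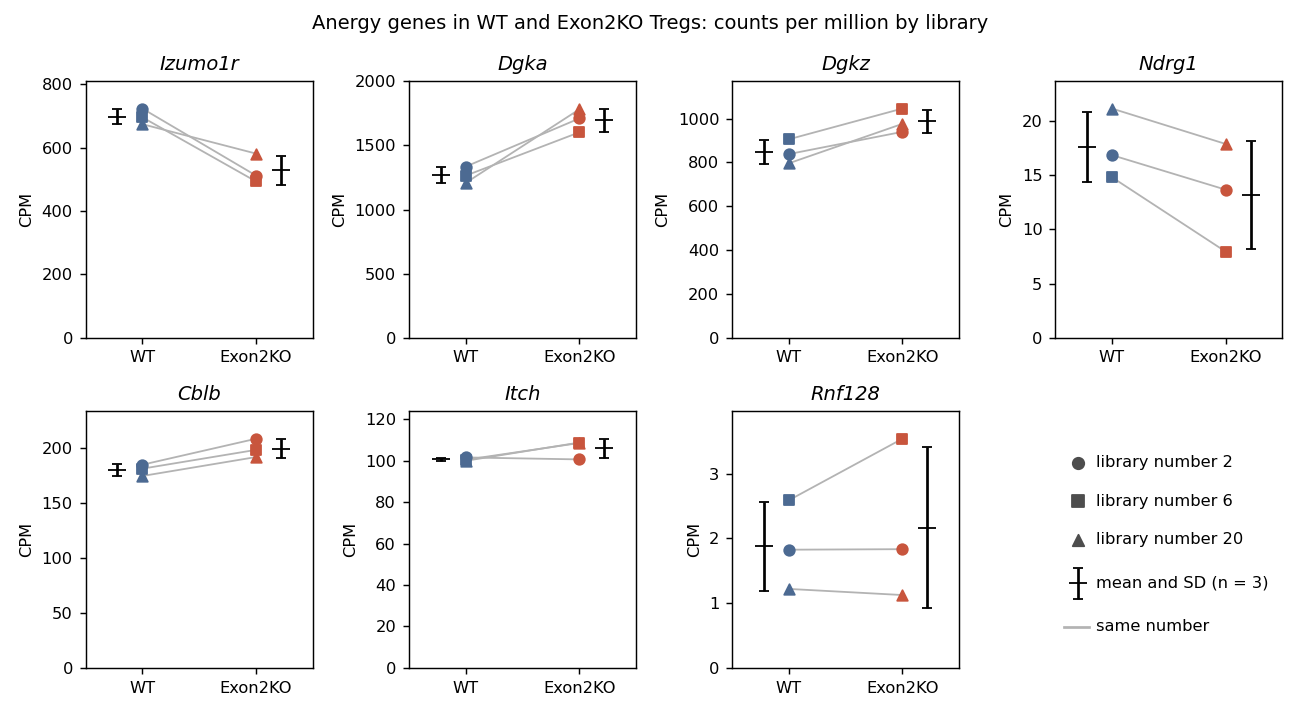
Level of each anergy gene (y axis, CPM on the TMM-scaled library size, from 0) in WT and Exon2KO Tregs; symbols give the library number, grey lines join libraries of the same number, and black bars show the mean and SD of 3 libraries. Izumo1r, Dgka, Dgkz and Cblb show no overlap between genotypes, whereas Ndrg1 and Rnf128 spread more by library number than by genotype.

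Measured per gene length, Dgka and Dgkz together made up 88.2% to 89.4% of the family's summed RPKM (CPM divided by the table's gene length in kilobases) in all 6 libraries. The sum over the 10 genes was 467, 459 and 431 RPKM in WT 2, 6 and 20 and 573, 563 and 594 RPKM in Exon2KO. The mean family sum was thus 452 ± 18.7 RPKM in WT and 577 ± 15.97 RPKM in Exon2KO (SD, n = 3 each), with no overlap; an exact permutation test of 3 against 3 cannot give a p under 0.1. Within the family Dgka took 58.9% ± 1.09 of the sum in WT and 61.8% ± 1.78 in Exon2KO, and Dgkz 29.8% ± 1.46 and 27.3% ± 1.99 (SD, n = 3 each), with overlapping ranges for both. The ratio of Dgka to Dgkz in RPKM was 2.10, 1.84 and 2.00 in WT and 2.40, 2.02 and 2.40 in Exon2KO, so these ranges overlapped too. Within each of the 3 library numbers, however, the Dgka share and the ratio were higher and the Dgkz share lower in Exon2KO; these differences were not tested.

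The third kinase by level was Dgkd, the delta form, at 37.7 to 51.2 RPKM. It was the only one of the 6 other tested family members to pass, where 2.33% of all genes did: it rose from 263 ± 4.12 to 338 ± 12.4 CPM (SD, n = 3 each; log2 fold change 0.36, SE 0.070, edgeR adjusted p = 0.0307). Like Dgka it lost its call in all 6 fits that left out 1 library (edgeR adjusted p from 0.0623 without WT 20 to 0.171 without Exon2KO 2) and without both libraries numbered 20 (0.34, edgeR adjusted p = 0.0900), and kept it with the block (0.36, edgeR adjusted p = 0.000841). Dgke, Dgkh, Dgkq, Dgki and Dgkg had log2 fold changes from -0.42 to 0.54 and did not pass in either fit, and Dgkb and Dgkk had 0 counts in all libraries.

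**Figure D2:**
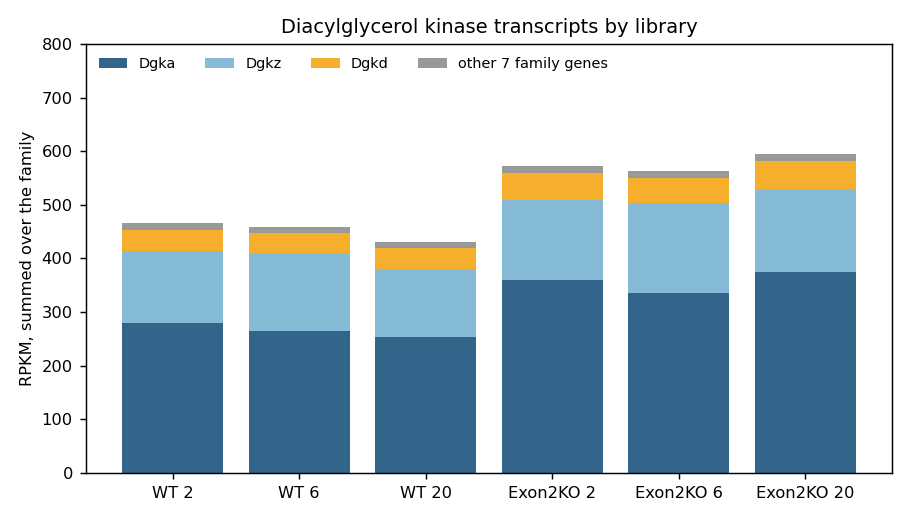
Summed RPKM of the 10 diacylglycerol kinase genes (y axis, from 0) in each of the 6 libraries, stacked by gene. The 3 Exon2KO bars (563 to 594 RPKM) stand above the 3 WT bars (431 to 467 RPKM), with Dgka the largest block in each.

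The genes that make or read diacylglycerol did not pass without the block: 0 of 14 tested genes of this list were called by edgeR, where 2.33% of all genes were. The median log2 fold change of the list was 0.03. With the block, 4 were called higher (4 of 14, where 3.93% of all genes were called higher) and none lower. Among them were Prkcq, which encodes protein kinase C theta (0.25, edgeR adjusted p = 0.0171), Prkd2, protein kinase D2 (0.28, edgeR adjusted p = 0.0109) and Rasgrp1, a Ras activator that binds diacylglycerol (0.22, edgeR adjusted p = 0.0389). Without both libraries numbered 20 these 3 lost their call in the blocked fit (edgeR adjusted p from 0.120 to 0.224), and 1 of the 4 kept it.

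None of the 3 ubiquitin ligase genes passed the test. Cblb (ENSMUSG00000022637, chromosome 16, 52031225 to 52208048, plus strand) encodes Cbl-b, a ligase that raises the costimulation a T cell needs. It had 184.5, 181 and 174 CPM in WT 2, 6 and 20 and 208, 198 and 191 CPM in Exon2KO. The groups did not overlap, but the gap between the highest WT and the lowest Exon2KO library was smaller than the range within either genotype. The log2 fold change was 0.15 (SE 0.071, 95% interval -0.011 to 0.31, edgeR adjusted p = 0.470), and 0.15 (edgeR adjusted p = 0.137) with the block. Against 2.33% of all genes, none of the 6 tested genes of its family and partners passed without the block. With it 2 of the 6 passed, against 9.72% of all genes: Cd2ap was called higher (0.24, edgeR adjusted p = 0.0214) and Ubash3b, a phosphatase gene of the TULA family, lower (-0.34, edgeR adjusted p = 0.00687). Both lost the call in the blocked fit without the libraries numbered 20 (edgeR adjusted p = 0.0801 and 0.0910).

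Itch (ENSMUSG00000027598, chromosome 2, 155133509 to 155226855, plus strand), a ligase of the NEDD4 family whose loss in mice causes itching and inflammation, had the lowest coefficient of variation (CV) of the 7 in WT (0.8%), but not in Exon2KO (4.4%, against 4.2% for Cblb). Its levels were 101.5, 100.4 and 99.9 CPM in WT and 100.6, 108.5 and 108.7 CPM in Exon2KO. Exon2KO 2 lay within the WT range while Exon2KO 6 and 20 lay above it. The log2 fold change was 0.074 (SE 0.070, 95% interval -0.082 to 0.23, edgeR adjusted p = 0.803), an interval that leaves room for differences of up to 1.17-fold.

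Of the other NEDD4 family genes and their adaptors, 1 of 8 tested was called, where 2.33% of all genes were: Smurf2, a ligase known for acting on the TGF-beta pathway, rose from 90.7 ± 5.60 to 139 ± 13.0 CPM (SD, n = 3 each; log2 fold change 0.62, SE 0.090, edgeR adjusted p = 0.00887). It kept its call in all alternatives but the fit without Exon2KO 2 (0.57, edgeR adjusted p = 0.0624). With the block, Smurf1 (0.25) and Nedd4l (0.33) were also called higher, and 5 of the 8 were called in all against 9.72% of all genes. Wwp2 (-0.21) and Ndfip1 (-0.23), an adaptor that activates Itch, were called lower, with edgeR adjusted p-values of these 4 from 0.0157 to 0.0396. None of the 4 was called in the blocked fit without the libraries numbered 20 (edgeR adjusted p from 0.0626 to 0.240).

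Rnf128 (ENSMUSG00000031438, X chromosome, 139563316 to 139673145, plus strand) encodes GRAIL, a membrane-bound ligase named after its relation to anergy in lymphocytes. It was barely detected: WT 2, 6 and 20 held 34, 47 and 26 counts and the Exon2KO libraries 33, 69 and 20, or 1.13 to 3.54 CPM. Both libraries numbered 6 were highest and both numbered 20 lowest, so the values followed the library number rather than the genotype. The log2 fold change was 0.22 (SE 0.46, 95% interval -0.81 to 1.24, edgeR adjusted p = 0.934), an interval that reaches from a fall to 0.572 of the WT level to a 2.36-fold rise. The CV was 36.5% in WT and 57.3% in Exon2KO, and with the block the SE was 0.30. Without WT 20 the value was -0.022 and without Exon2KO 6 it was -0.35, so its sign rests on single libraries. None of the 7 tested GRAIL regulators and relatives passed in either fit, where 2.33% (without the block) and 9.72% (with it) of all genes did. All 7 had positive log2 fold changes (0.02 to 0.26), which 7726 of the 14919 tested genes had.

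Ndrg1 (ENSMUSG00000005125, chromosome 15, 66929318 to 66969640, minus strand) belongs to the N-myc downstream regulated genes, is induced by low oxygen in many cells and has been described as an anergy factor of T cells. Reads were few, at 314, 269 and 451 counts for WT 2, 6 and 20 against 246, 155 and 318 for Exon2KO, that is 16.9, 14.8 and 21.2 CPM against 13.7, 7.95 and 17.9 CPM. The genotypes overlapped, because Exon2KO 20 was above WT 2 and WT 6. Within each number Exon2KO was below WT, by 0.30, 0.90 and 0.24 on the log2 scale. Mean levels were 17.6 ± 3.24 and 13.2 ± 4.99 CPM (SD, n = 3 each), and the fitted log2 difference was -0.42 (SE 0.28, 95% interval -1.07 to 0.23, edgeR adjusted p = 0.674).

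With the block Ndrg1 was called lower (-0.46, SE 0.14, edgeR adjusted p = 0.0439). Without both libraries numbered 20 it was not called in the blocked fit (-0.59, edgeR adjusted p = 0.0647). Leaving out 1 library without the block moved the log2 fold change from -0.71 (without Exon2KO 20) to -0.17 (without Exon2KO 6), and without WT 20 it was -0.27, so its size depends on several single libraries. Its relative Ndrg3 went the other way: it rose from 93.5 ± 2.06 to 127 ± 2.00 CPM (SD, n = 3 each; log2 fold change 0.44, SE 0.067, edgeR adjusted p = 0.0108). Ndrg3 lost its call only without Exon2KO 2 (0.44, edgeR adjusted p = 0.0770). Ndrg2 and Ndrg4 (-0.04 and -0.21) did not pass.

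**Figure D3:**
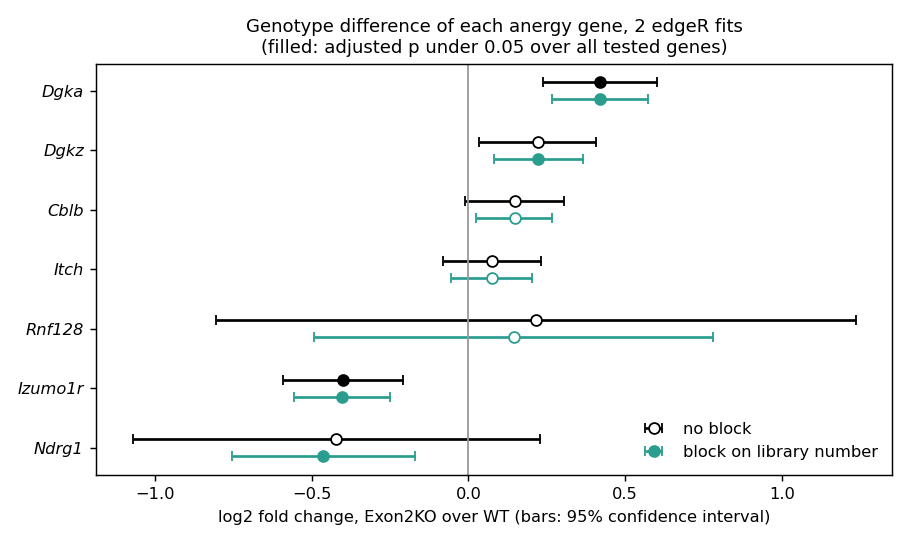
Log2 fold change of each gene, Exon2KO over WT (x axis), from edgeR without (black) and with (green) the library number as a block; bars are 95% confidence intervals and filled points passed an adjusted p of 0.05 over all tested genes. Dgka and Izumo1r are filled in both fits at 0.42 and -0.40, Dgkz and Ndrg1 only with the block, and the intervals of Rnf128 are the widest.

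Levels of the 7 genes spanned 3 tiers per gene length. Dgka (253 to 374 RPKM over the 6 libraries), Izumo1r (213 to 312) and Dgkz (127 to 167) ranked 103, 114 and 223 by mean RPKM among the 21900 protein-coding genes of the table. Cblb (16.6 to 19.9 RPKM) and Itch (10.3 to 11.2) formed the middle, with no overlap between them, and Ndrg1 (1.21 to 3.21) and Rnf128 (0.325 to 1.02) the bottom. Only Dgka and Izumo1r overlapped as neighbours in this order, and their order differed by genotype. In each WT library Izumo1r was above Dgka (301 ± 10.7 against 266 ± 13.4 RPKM), and in each Exon2KO library it was below (228 ± 19.97 against 357 ± 18.9 RPKM; SD, n = 3 each). The ratio of Dgka to Izumo1r was 0.899, 0.885 and 0.873 in WT 2, 6 and 20 and 1.63, 1.58 and 1.49 in Exon2KO. These ratios combine the 2 differences already described and are given as a description.

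**Figure D4:**
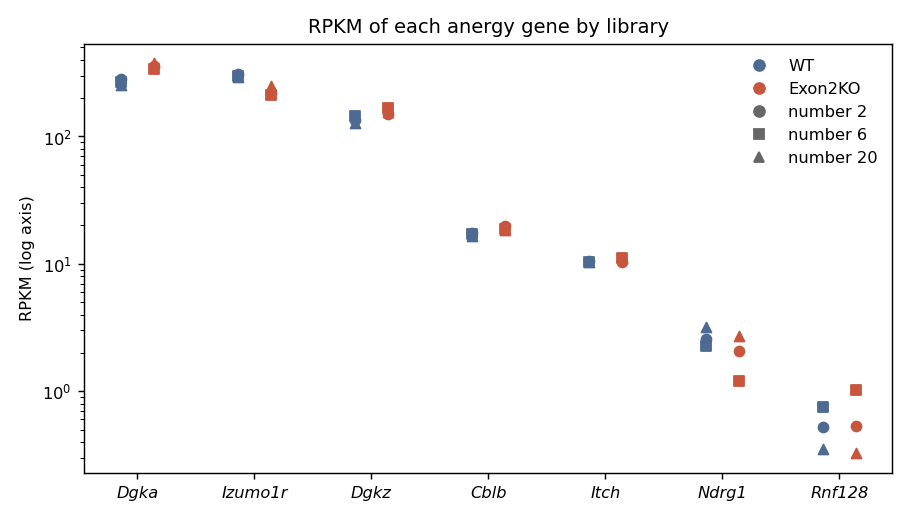
RPKM (y axis, log scale) of the 7 genes in each library, ordered by mean; blue is WT, red is Exon2KO, and the symbol gives the library number. Dgka and Izumo1r change places between genotypes, and the other 5 genes keep their place.

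Other genes tied to anergy gave no call without the block: by edgeR 0 of 16 tested genes passed, where 2.33% of all genes did. Their log2 fold changes were 8 positive and 8 negative, with a median of 0.01. Egr2, a transcription factor gene of the anergy program, was listed at 0 counts in all 6 libraries, and whether the counting could have missed its reads was not tested. Its relative Egr3 had 74.9 ± 4.25 CPM in WT and 73.6 ± 5.68 CPM in Exon2KO (SD, n = 3 each; log2 fold change -0.03). With the block 2 were called higher and 3 lower, that is 5 of 16 against 9.72% of all genes. Dtx1, the gene of the ligase Deltex1 (0.55, edgeR adjusted p = 3.0e-05) and Ikzf1, which encodes Ikaros (0.35, edgeR adjusted p = 0.00166) were higher. Among the lower genes were Tox (-0.27, edgeR adjusted p = 0.0152) and Nt5e, the gene of CD73, a surface marker used together with folate receptor 4 (-0.22, edgeR adjusted p = 0.0350). In the blocked fit without the libraries numbered 20, 3 of these 5 kept their call, Dtx1 and Ikzf1 among them, and Tox and Nt5e lost it (edgeR adjusted p = 0.117 and 0.224).

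The genes whose profile over the 6 libraries was most like that of a member were found by the mean absolute difference of log2 CPM, each gene centred on its own mean, among 9365 other protein-coding genes of at least 5 CPM (9366 for Rnf128, itself below that level). Fold changes near that of the member follow from this choice and are no separate result. For Izumo1r the nearest were Usp20 (0.028), Vav2 (0.037) and Ncf4 (0.048), with log2 fold changes of -0.44, -0.39 and -0.37. Ncf4 passed (edgeR adjusted p = 0.0459), and Usp20 and Vav2 did not (edgeR adjusted p = 0.0616 each). For Dgka they were Grk6 (0.029), Fam102a (0.034) and Gpr146 (0.035), with log2 fold changes of 0.38, 0.42 and 0.38. These passed, with edgeR adjusted p-values from 0.0190 to 0.0406. Cblb was nearest Ddx46, Usp21 and Sf3b1 (0.008 to 0.016), Itch nearest Scaf8, Dhx8 and Dpp9 (0.014 to 0.015), and Dgkz nearest Thap11, Mospd3 and Mapk14 (0.016 to 0.019). The nearest gene to Ndrg1 was Nol4l (0.053), and the nearest to Rnf128 was Smox (0.10).

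The authors' deposited table gives log2 fold changes of 0.42 for Dgka (adjusted p = 0.000117) and -0.40 for Izumo1r (adjusted p = 0.00137). For the other 5 genes the authors' deposited table lists adjusted p-values from 0.258 (Dgkz) to 0.999.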

How the data were processed

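The table holds 1 column of counts per library for 6 libraries, deposited as whole numbers that were not normalized, per the file headers. The submitters' processing notes name HISAT2 2.0.5, StringTie 1.3.3b, featureCounts 1.5.0-p3, DESeq2 1.16.1 and the build mm10, without roles; strand use is not given in the sources used here. The other 6 columns of per-library values were not used. Levels of different genes were compared as RPKM computed here from the deposited counts, the table's gene length and the TMM-scaled library size, in place of the deposited values first planned. The authors' deposited log2 fold change, p-value and adjusted p-value were quoted by name, and their deposited group means (scaled count signal) were not used further. All 7 genes have the same position in GENCODE mouse release 21 (GRCm38).

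Counts were tested with edgeR 4.0.16 in R 4.3.3 (filterByExpr, TMM, robust quasi-likelihood, Exon2KO against WT, no covariate; two-sided, Benjamini-Hochberg over 14919 genes, threshold 0.05). SE is the absolute log2 fold change over the square root of F, and CPM use the TMM-scaled size. Where a count of 0 is given a limit in CPM, the limit stands for 3 counts and covers counting error only. Column names do not carry the titles' replicate numbers, so columns were assigned to groups only and the block used the column number, chosen after seeing the data. Same-numbered libraries departed jointly from their genotype's mean profile (correlations across 14919 genes of 0.271, 0.369 and 0.494). The numbers were taken as pairs on this basis, although no label says that they mark pairs. Libraries of different numbers were not correlated in this way for comparison. Replicates differed beyond sampling noise (chi-square per degree of freedom 8.12 to 23.6). What the replicates are is not described beyond the titles, so p-values measure the spread between these libraries.

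The 7 genes, the lists and the alternatives (DESeq2 1.42.0, limma-voom 3.58.1, RLE and upper-quartile scaling, no filter, at least 10 counts in every library, libraries left out) were chosen with earlier results of these data known. Named genes were all 7, called genes of the other lists (at most 4 a list), and the 3 nearest profiles of each; genes called only with the block, and others given as examples, were chosen after their values were seen. Single genes that are counted in the lists but not named are not reported here. Scripts were tested on simulated data.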

Additional observations from a re-analysis of the deposited data

How the results depend on the processing

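Direction was kept by 6 of the 7 genes in all 15 alternatives; Rnf128 reversed without WT 20 (-0.022) and without Exon2KO 6 (-0.35), and lay between -0.35 and 0.52 in the 6 fits that each dropped a library. In the same fits Izumo1r ran from -0.48 to -0.36, Dgka from 0.38 to 0.45, Dgkz from 0.17 to 0.28 and Ndrg1 from -0.71 to -0.17. Dgka was also not called without both libraries numbered 20 (0.35). The replicate block on the column number added calls for Dgkz (0.22) and Ndrg1 (-0.46), making 4 members called; 0 or 1 were called after dropping a single library, 1 without both numbered 20, and 2 with the replicate block without both, where Dgkz and Ndrg1 lost their call. The cause of these changes was not tested. Over all genes 348 were called: 362 without both libraries numbered 20, 1450 with the replicate block, 900 with the replicate block without both libraries numbered 20, 617 without a count filter, 640 with DESeq2, and 86 to 314 after dropping a single library. The order by mean RPKM over both genotypes was the same when any 1 of the 6 libraries was left out of the mean. Within a genotype the order of Dgka and Izumo1r differed, as given above. Scalings moved the median of all genes by under 0.1. Rnf128 rests on 20 to 69 counts per library; whether its spread comes from depth was not tested.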
